A study of Mus musculus with 12 samples.

Results

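The 90 genes described here are those of the cytoplasmic ribosomal proteins, out of 44345 gene names in each count table. A gene was taken when its symbol starts with Rpl or Rps followed by a digit, or is Rplp0, Rplp1, Rplp2 or Rpsa; the Rps6k kinase genes and 222 names containing "-ps" were left out. No measured value entered this rule. Of the 90 genes, 43 encode core proteins of the large subunit, 31 encode proteins of the small subunit and 3 encode the stalk (77 canonical genes). The remaining 13 are paralogs or other genes that the symbol rule also takes. RNA came from sciatic dorsal root ganglia (DRG, levels L4 to L6) of C57BL/6 mice aged 5 to 8 weeks kept for 10 days either under environmental enrichment (EE) or under standard housing (SH). Whole ganglia were pooled from 2 mice per library and sequenced after a TruSeq mRNA preparation. Large-diameter neurons of at least 30 µm were isolated by laser microdissection of 16 µm sections stained with toluidine blue, each library from 3 mice, and sequenced after a RiboZero ScriptSeq preparation. No group carried a transgene, a lesion or an agent according to the labels. The whole-ganglion columns have Sham in their names, a word that the labels do not explain. Each of the 4 groups held 3 libraries, written SH1 to SH3 and EE1 to EE3 below. Whether replicate libraries derive from different animals is not labelled, and the p-values therefore reflect library-to-library spread that can be technical.

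Ribosomal proteins assemble with ribosomal RNA into a small subunit, which decodes the messenger RNA, and a large subunit, which joins the amino acids. Their messenger RNAs are abundant and short, and most begin at the cap with a terminal oligopyrimidine (TOP) stretch, a C followed by a run of C and T letters, through which mTOR signalling controls their translation as a group. Sensory neurons are known to place ribosomes and ribosomal protein messenger RNAs in their axons as well as in the cell body.

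Runs of C and T near the annotated start sites are described here by their letters. RefSeq promoters of assembly GRCm38.p6, the assembly of the authors' build mm10, were matched by symbol for 65 of the 90 genes, 57 canonical and 8 others. Each window below is 30 bases long, lies between 10 bases before and 50 bases after an annotated start, and is written 5′ to 3′ on the gene's strand. Capitals mark the longest run of C and T within that stretch. Where a symbol had several promoter entries, the entry with the longest such run was taken, so the windows were chosen for the run they show. The run reaches an edge of the stretch in Rpl10, Rpl5 and Rps27l and can be longer there. It begins at base 35, 41 and 44 from the annotated start in Rps21, Rpl10 and Rpl5. In Rpl38, Rpl28, Rpl10, Rpl5 and Rpl22l1 its first letter is T. A run in capitals is therefore not by itself a TOP stretch. Rpl38, Rps21, Rps27, Rpl28 and Rpl10 stand at or near the ends of the housing comparisons. Rps18 and Rpl5 (chosen after their values were seen) lie toward opposite ends of the comparison between preparations. Rps27l, Rpl22l1 and Rps19bp1 are genes outside the canonical set.
Rpl38: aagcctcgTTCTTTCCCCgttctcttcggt
Rps21: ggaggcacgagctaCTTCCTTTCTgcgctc
Rps27: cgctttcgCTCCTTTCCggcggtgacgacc
Rpl28: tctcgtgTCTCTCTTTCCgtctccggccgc
Rpl10: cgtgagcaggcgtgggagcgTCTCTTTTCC
Rps18: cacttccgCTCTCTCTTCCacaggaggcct
Rpl5: tgcgcatgcgtacgtgactccggTCTTTTT
Rps27l: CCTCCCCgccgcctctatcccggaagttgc
Rpl22l1: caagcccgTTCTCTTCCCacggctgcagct
Rps19bp1: ggaagtagCTCgccgcgtgtgggcggggct

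The windows lie at chr11:114668570-114668599 on the plus strand for Rpl38, chr2:180257399-180257428 (plus) for Rps21, chr3:90213629-90213658 (minus) for Rps27, chr7:4792955-4792984 (plus) for Rpl28 and chrX:74270836-74270865 (plus) for Rpl10. Those of Rps18 and Rpl5 are chr17:33955646-33955675 (minus) and chr5:107900548-107900577 (plus). Those of Rps27l, Rpl22l1 and Rps19bp1 are chr9:66946076-66946105 (plus), chr3:28805501-28805530 (plus) and chr15:80264286-80264315 (minus). Within the searched stretch the run of C and T was 11 bases long in Rpl28 and Rps18 and 10 in Rpl38, Rps21, Rpl10 and Rpl22l1. It was 9 in Rps27, 7 in Rpl5 and Rps27l and 3 in Rps19bp1. The product of Rps19bp1 binds the ribosomal protein Rps19 and is not itself a ribosomal protein. A run of at least 8 C or T letters between 10 bases before and 50 bases after the start stood in 42 of the 57 canonical genes (73.7%) and in 24.0% of all 27025 genes with a promoter in the table. The letters CTTTCC stood in the same stretch of 16 of the 57 (28.1%) and in 3.04% of all genes, and CTCTTTC in 10 (17.5%) and in 0.851%. These 3 searches read the gene's own strand, and their matches can overlap. CCGGAAG, searched on both strands of the 300 bases from 250 before to 50 after the start, stood in 24 of the 57 (42.1%) and in 9.93% of all genes. Of the 8 other genes, 3 held the run, 2 held CTTTCC, 0 held CTCTTTC and 2 held CCGGAAG. In every search a gene was counted when any of its promoter entries matched. Annotated starts need not be the starts used in these ganglia, and a match is a description of letters.

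Reads in genes numbered 11343579 to 17036481 per whole-ganglion library and 19296230 to 29434351 per captured library. Canonical members had at least 536 reads in every whole-ganglion library and at least 210 in every captured library, in both cases for Rps27. By summed markers, the captured samples matched their label only in part. Myelinating Schwann cell markers (16 genes) summed to 1237 to 1612 CPM (counts scaled to library size) in the captured SH libraries against 7943 to 9755 in the whole SH libraries. Markers of large neurons (20 genes, such as the neurofilament gene Nefh) summed to 9296 to 11730 CPM in captured and 15735 to 16837 CPM in whole SH libraries. Single genes of that list went both ways in the mean over all libraries of a preparation. Nefm, Vamp1 and Spp1 were lower in captured (2305, 267 and 62.8 CPM) than in whole libraries (5532, 703 and 248). Ntrk3, Scn1a and Kcna2 were higher (129, 372 and 170 CPM against 24.8, 146 and 91.3). Kit and cells differed together, so their parts cannot be told apart. Markers of the smaller nociceptors (26 genes, such as the sodium channel gene Scn10a) summed to 5481 to 6396 and 5058 to 5732 CPM. No marker present in the tables was at 0 in all libraries of a preparation. In a bulk library, fewer cells of a type and less RNA per cell cannot be told apart.

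Ribosomal protein genes took 1.22 to 1.57% of the reads in genes of whole ganglia and 0.670 to 0.902% in captured neurons, and the housing groups overlapped in both. Their CPM in whole ganglia summed to 13412, 14322 and 14200 in SH1, SH2 and SH3 and to 12164, 15740 and 14129 in EE1, EE2 and EE3. The lowest and the highest library were both EE. The means were 13978 ± 494 (SD, n = 3) in SH and 14011 ± 1791 (n = 3) in EE. In captured neurons the sums were 8122, 6704 and 7300 in SH and 9016, 7391 and 7123 in EE, with means of 7375 ± 712 and 7843 ± 1024 (SD, n = 3 each). The highest captured library was EE1 and the lowest SH2, and the other 4 lay between them. Counting error was far smaller than these differences: EE1 of whole ganglia had 1.22% (exact Clopper-Pearson 95% interval 1.21 to 1.22%) and EE2 1.57% (1.57 to 1.58%), where reads are not independent molecules and the interval covers counting error only.

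**Figure D1:**
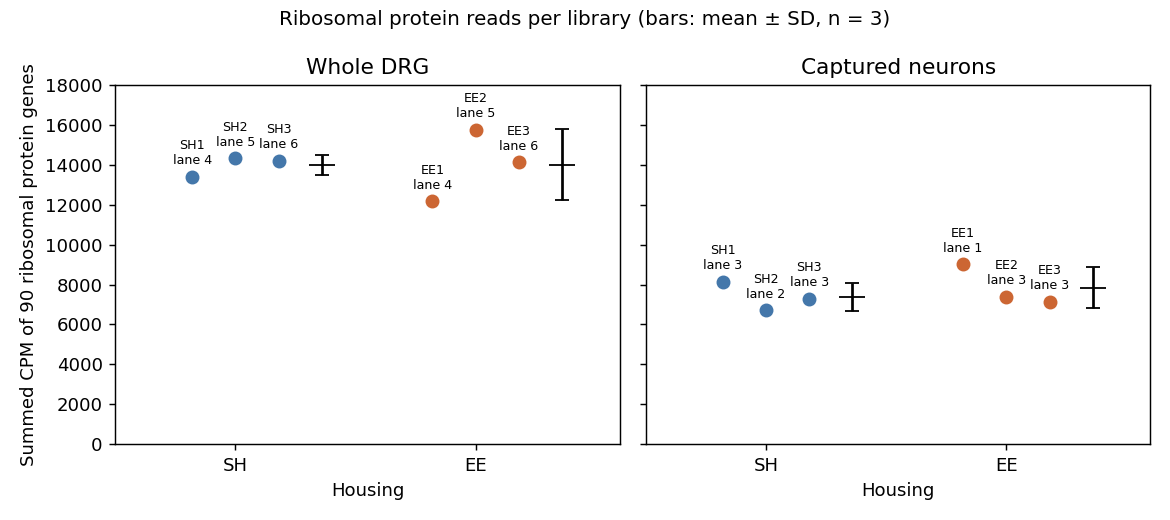
Summed CPM of the 90 ribosomal protein genes (y axis) in each library, SH in blue and EE in orange, with the sequencing lane beside each point and bars for the group mean ± SD (n = 3). The EE libraries of whole DRG spread from 12164 to 15740 on either side of the SH libraries, and captured EE1, the single library of lane 1, is highest at 9016.

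Most members moved up and down by library as a block. For each tested gene, log2 CPM was set against that gene's own mean over the 6 libraries of the preparation. In whole ganglia the median over 83 members was −0.050, 0.035 and 0.015 in SH1 to SH3 and −0.18, 0.16 and 0.017 in EE1 to EE3. Only 2 of the 83 lay above their own mean in EE1, and 82 did in EE2. In captured neurons the median over 84 members was 0.077, −0.15 and −0.056 in SH1 to SH3 and 0.25, −0.044 and −0.087 in EE1 to EE3, with 83 of the 84 above their own mean in EE1 and 6 in SH2. The median over all tested genes stayed between −0.0069 and 0.0081 in every library. In whole ganglia the lowest and the highest median were both of EE libraries, while in captured neurons the highest was EE1 and the lowest SH2. The order by lane was the same in both housing groups of whole ganglia. The lane 4 libraries (SH1 and EE1) were lowest in their group and the lane 5 libraries (SH2 and EE2) highest. Lane and replicate number coincide there and cannot be told apart.

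Most individual genes followed this library pattern. The share of the members' squared deviation that lay on the library means was 63.3% in whole ganglia and 69.2% in captured neurons. The median correlation of a member with the library median was 0.88 and 0.92 over 6 libraries that share depth and scaling with it. The library median was taken over the members themselves, so part of this correlation is built in, and no other gene set was read beside it. That correlation was above 0.5 for 76 of 83 and 81 of 84 members. Rpl15, a large-subunit protein, followed least in whole ganglia (0.098, named after its value was seen), with CPM of 188, 190 and 177 in SH and 186, 196 and 176 in EE. In captured neurons it was Rps4y2 (−0.58), with 8.91, 10.3 and 9.38 in SH and 8.56, 9.57 and 8.22 in EE.

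Some other lists also stood apart in these libraries, not always in the members' direction. The median deviation of 10 short abundant transcripts (such as Ftl1, Atp5e and Ndufa4) was −0.15 in EE1 and 0.18 in EE2 of whole ganglia, and 0.23 in EE1 and −0.22 in SH2 of captured neurons. Myelinating Schwann markers were at −0.29 and 0.29 in EE1 and EE2 of whole ganglia and at −0.30 and −0.27 in EE1 and SH2 of captured neurons. Reads outside any annotated feature were fewest in captured EE1 (28.0%) and most numerous in captured SH2 (36.3%). These 2 captured libraries were also alone in lanes 1 and 2, so library and lane cannot be told apart there. The part of short transcripts, glial RNA or lane in the members' library pattern was not tested.

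**Figure D2:**
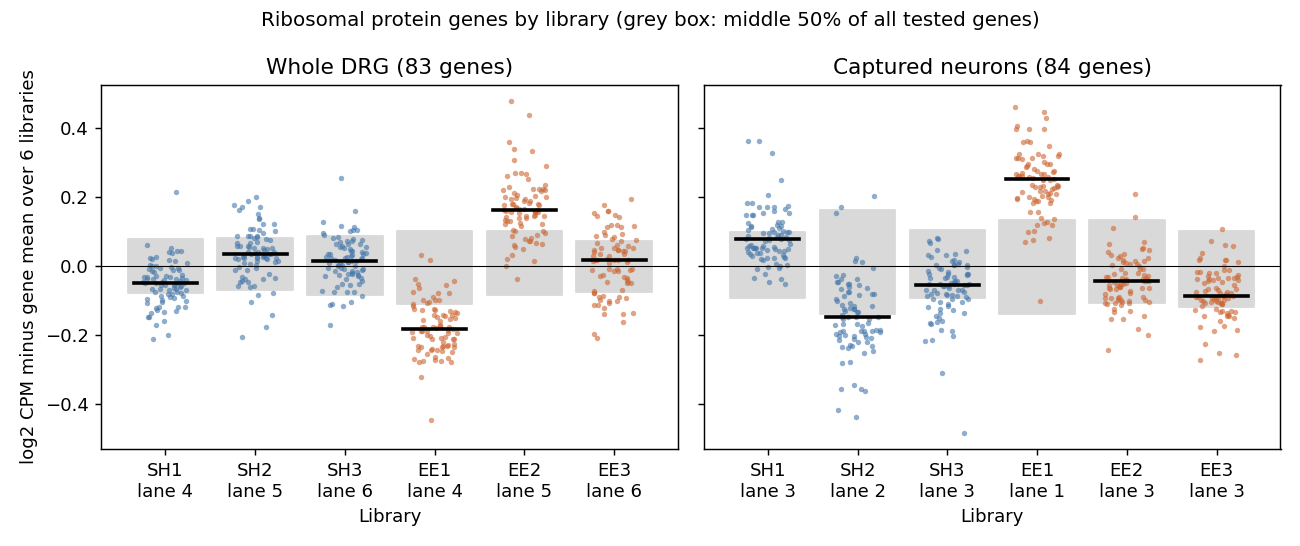
Each point is a ribosomal protein gene, placed by its log2 CPM minus its own mean over the 6 libraries of the preparation (y axis), per library (x axis, with its lane); black bars are medians, and grey boxes hold the middle 50% of all tested genes. In whole DRG the medians of EE1 and EE2 lie at −0.18 and 0.16, and in captured neurons that of EE1 lies at 0.25.

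The question of the study's design was which transcripts differ with housing. In whole ganglia, no ribosomal protein gene passed the test between EE and SH (0 of 83 tested; edgeR quasi-likelihood test, Benjamini-Hochberg adjustment over all 15845 tested genes at 0.05). Of all tested genes 0.00631% passed. DESeq2 and limma-voom also called 0 members, and with the replicate number as a block 32 genes in all passed, 0 of them members. At an unadjusted p under 0.05 there was 1 member, against 2.9% of all tested genes. The log2 fold changes of the 83 ran from −0.17 to 0.19 with a median of 0.017 (1.01-fold; all tested genes 0.0028), and 52 were above 0, where 51.3% of all tested genes were. The 95% interval of all 83 members lay within a 1.5-fold change in either direction, and that of 79 within a 1.25-fold change. These intervals reflect library-to-library spread, and most members shifted together by library, so the intervals are not independent of each other. Medians were 0.017 for the 43 large-subunit genes, 0.024 for the 31 small-subunit genes and −0.028 for the 3 stalk genes.

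Among small-subunit genes of whole ganglia, Rps27 (a zinc-finger protein of the small subunit) had the smallest p. Its CPM was 47.2, 48.8 and 44.4 in SH and 47.3, 55.2 and 56.2 in EE. The 2 highest values were EE libraries, while EE1 lay among the SH values. Its log2 fold change was 0.19 (SE 0.078, 95% interval 0.02 to 0.35, adjusted p = 0.9996 by edgeR's quasi-likelihood test), which did not pass. Rps25, a small-subunit protein, had 135, 146 and 133 CPM in SH and 128, 159 and 158 in EE (log2 fold change 0.11, SE 0.082). EE1 was the lowest of the 6 libraries and the other two EE libraries were the highest. The locus of Rps25 overlaps Trappc4 and Ccdc84 on the opposite strand, by 462 and 269 bases.

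Among large-subunit genes of whole ganglia, Rpl28 had the lowest log2 fold change (−0.17, SE 0.093), from 105, 119 and 112 CPM in SH to 85.4, 116 and 95.2 in EE, with overlapping groups. Its locus overlaps Ube2s on the opposite strand by 521 bases. Rpl24, a protein at the face toward the small subunit, was the single member whose groups did not overlap, with 194, 201 and 194 CPM in SH and 175, 185 and 185 in EE. Of all tested genes 7.6% did not overlap, 2.69% with EE higher and 4.92% with EE lower, so 1 of 83 is a smaller share. Its log2 fold change was −0.096 (SE 0.063), and it shares most of its locus with the same-strand transcript Gm28037, so their reads can be split by the counting. Rpl38, a large-subunit protein whose loss in mice alters the axial skeleton, had 85.6, 96.2 and 89.8 CPM in SH and 71.2, 95.8 and 80.3 in EE (−0.12, SE 0.091), and its groups overlapped.

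In captured neurons, most members were higher in EE on average, by about 5%, but none passed the test, and the median turned below 0 without library EE1. Of 84 tested members 78 had a log2 fold change above 0, where 49.9% of all tested genes did, with a median of 0.075 (1.05-fold) and a range of −0.20 to 0.34. The test called 0 of the 84 (edgeR quasi-likelihood test, adjusted over 16186 tested genes, of which 0.0185% passed, 0.00618% higher and 0.0124% lower in EE), as did DESeq2 and limma-voom. Unadjusted p was under 0.05 for 2 members, against 15.9% of all tested genes. Groups did not overlap for 1 member, higher in EE, against 20.9% of all tested genes in either direction and 9.82% with EE higher. The intervals of 81 members lay within a 1.5-fold change and those of 42 within a 1.25-fold change. The intervals were wider than in whole ganglia, with a median SE of 0.11 against 0.088. Without EE1 the median log2 fold change of the members was −0.036, and with correction for transcript length and GC content it was 0.018. Without any filter on low counts 2 members, Rpl38 and Rps21, passed (adjusted p = 0.0366 and 0.0164, edgeR quasi-likelihood test), and 902 genes in all.

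**Figure D3:**
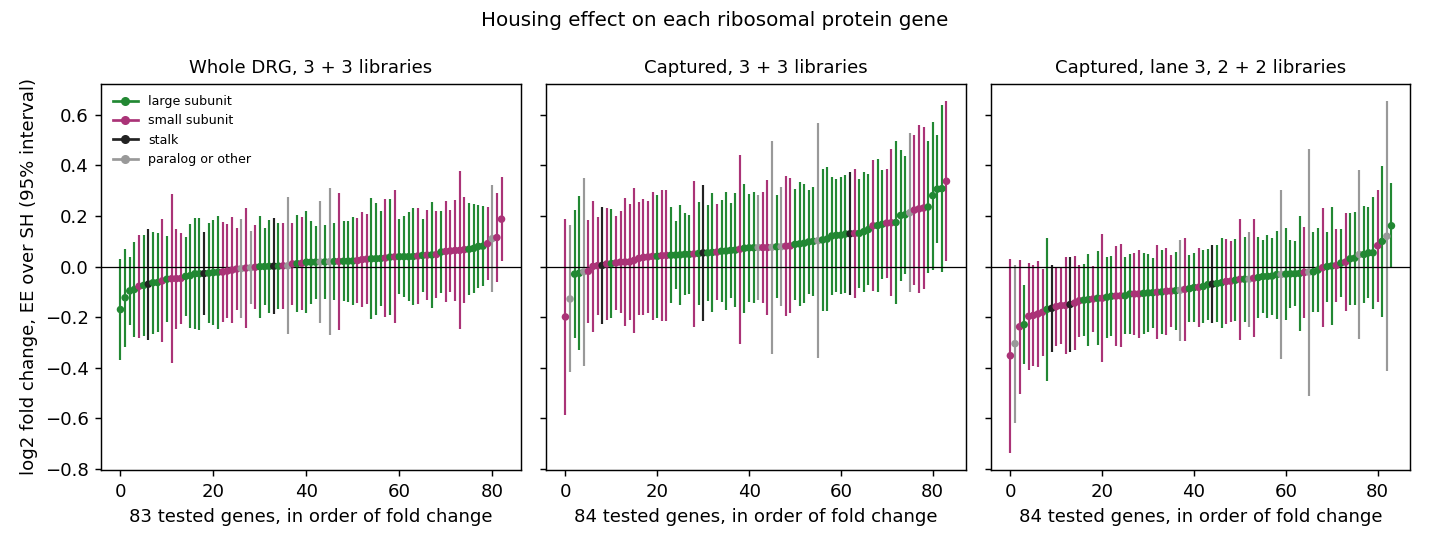
Log2 fold change of EE over SH (y axis) for every tested ribosomal protein gene with its 95% interval, in order of size (x axis), coloured by subunit. All whole-DRG intervals stay within 1.5-fold; captured neurons have 78 of 84 genes above 0 over all lanes and 14 of 84 in lane 3.

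Large-subunit genes had a median log2 fold change of 0.090 in captured neurons (41 of 43 above 0). Rpl38 was the member with the smallest p and the single member whose groups did not overlap. Its CPM was 49.8, 38.7 and 47.7 in SH and 60.6, 56.2 and 52.1 in EE. Every EE library lay above every SH library. The means were 45.4 ± 5.92 and 56.3 ± 4.27 CPM (SD, n = 3 each). The log2 fold change was 0.31 (SE 0.096, 95% interval 0.09 to 0.52, 1.24-fold), with an adjusted p of 0.18 by edgeR's quasi-likelihood test. In lane 3 alone it was 0.16 (SE 0.078), and there Rpl38 was the single member higher in EE without overlap.

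Rpl41, a very small basic protein of the large subunit, had 68.3, 48.6 and 58.3 CPM in SH and 84.7, 66.8 and 61.8 in EE (log2 fold change 0.28, SE 0.13). Rpl36 had 22.0, 14.1 and 17.3 in SH and 24.3, 22.9 and 18.9 in EE (0.31, SE 0.15), and Rpl39, which lies at the exit tunnel, had 62.4, 49.8 and 52.1 in SH and 76.6, 58.0 and 59.3 in EE (0.24, SE 0.12). In each of these genes the groups overlapped and EE1 was the highest library. In lane 3 alone the log2 fold changes were 0.033, 0.10 and 0.048. Rpl10, which joins the large subunit late in its assembly, was among the lowest of the set at −0.030 (SE 0.11).

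Small-subunit genes had a median log2 fold change of 0.044 in captured neurons (29 of 31 above 0). The highest was Rps21, with 48.7, 34.7 and 39.9 CPM in SH and 62.9, 49.9 and 43.3 in EE. Its log2 fold change was 0.34 (SE 0.14, 95% interval 0.02 to 0.65, adjusted p = 0.285 by edgeR's quasi-likelihood test), and EE3 lay within the SH values. In lane 3 it was 0.082 (SE 0.10). Rps27 was the lowest member at −0.20 (SE 0.17), with 16.5, 13.7 and 10.9 CPM in SH and 14.6, 10.8 and 10.5 in EE, while in whole ganglia it had been the highest. The stalk genes Rplp0, Rplp1 and Rplp2, whose products recruit the elongation factors, had log2 fold changes of 0.13, 0.054 and 0.0043 (SE 0.11, 0.12 and 0.10).

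Summed levels of some marker lists did not overlap between the housing groups of the captured libraries, although few of their genes passed the test. Of nociceptor markers 1 of 26 fell (Mrgprb5), of satellite glia markers 1 of 15 rose (Fabp7), and 0 of 20 large-neuron markers and 0 of 10 short transcripts passed. Nociceptor markers summed to 4248 to 5271 CPM in EE against 5481 to 6396 in SH, and large-neuron markers to 12062 to 16127 against 9296 to 11730. Satellite glia markers (15 genes) summed to 3900 to 4245 CPM in EE and 3133 to 3602 in SH. The 10 short transcripts summed to 2629 to 2885 CPM in EE and 2272 to 2612 in SH, and all 10 had a log2 fold change above 0, with a median of 0.24. The part of any of these in the members' values was not tested.

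Within lane 3, which held captured SH1, SH3, EE2 and EE3, the direction of the set was the opposite of that over all lanes. Of 84 members 70 had a log2 fold change below 0 and 14 above, where 49.2% of all tested genes were above 0, with a median of −0.081 (0.946-fold). Among small-subunit genes 28 of 31 were below 0 (median −0.11), among large-subunit genes 34 of 43 (−0.050), and all 3 stalk genes were (−0.17 for Rplp1, −0.15 for Rplp2 and −0.070 for Rplp0). The test called 0 of the 84 (edgeR quasi-likelihood test over 16199 tested genes, of which 4.06% passed, 1.88% higher and 2.18% lower in EE), and 4 had an unadjusted p under 0.05, against 16.3% of all tested genes. The groups did not overlap for 33 members, 32 of them lower in EE. Such separation is common with 2 libraries a side, at 46% of all tested genes in either direction and 25.2% lower in EE, 20.8% higher. The 32 comprised 17 small-subunit, 11 large-subunit and 2 stalk genes and 2 of the other genes. In this lane 21 of 26 nociceptor markers fell and 10 of 20 large-neuron markers and 5 of 15 satellite glia markers rose with EE at the same threshold, beside which the members' values stand. Of the 10 short transcripts 7 had a log2 fold change above 0 in lane 3 (median 0.14, 0 passed), while most members were below 0. The part of these lists in the members' values was not tested.

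Rpl10 had the smallest p in lane 3, at 82.9 and 84.0 CPM in SH1 and SH3 and 74.4 and 66.9 in EE2 and EE3. Both EE libraries lay below both SH libraries. Its log2 fold change was −0.23 (SE 0.072, 95% interval −0.39 to −0.07), with an adjusted p of 0.112 by edgeR's quasi-likelihood test, and EE1, in lane 1, was the highest of all 6 captured libraries at 95.4 CPM. The small-subunit gene Rps15a had 53.8 and 51.4 CPM in SH and 48.0 and 44.2 in EE (−0.18, SE 0.079). Rps3a1 had 196 and 175 CPM in SH and 172 and 158 in EE (−0.15, SE 0.069). Rps23, a protein of the decoding centre, had 162 and 141 CPM in SH and 134 and 135 in EE (−0.16, SE 0.072). None of these passed after adjustment, and Rps15a, Rps3a1 and Rps23 had positive log2 fold changes in whole ganglia (0.062, 0.048 and 0.060), as over all lanes of captured neurons (0.018, 0.075 and 0.010). Rps27 again had the lowest value of the set in lane 3 (−0.35, SE 0.18).

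**Figure D4:**
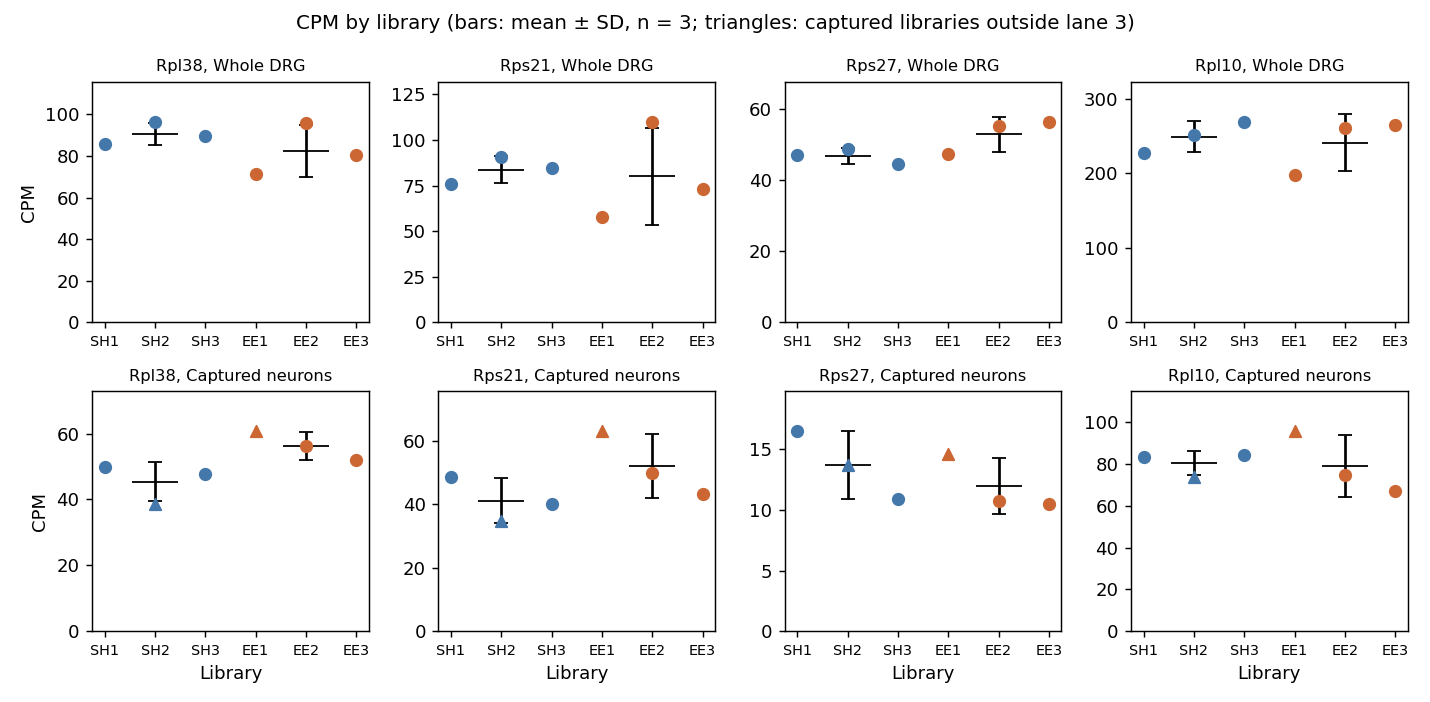
CPM (y axis, from 0) of Rpl38, Rps21, Rps27 and Rpl10 in each library (x axis; SH blue, EE orange), whole DRG above and captured neurons below, with group means ± SD (n = 3) and triangles for the captured libraries outside lane 3. Rpl38 in captured neurons is the single panel in which all 3 EE libraries (52.1 to 60.6) lie above all 3 SH libraries (38.7 to 49.8).

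The housing effect of captured neurons was then set against that of whole ganglia in 1 fit over all 12 libraries. Of 85 tested members 0 passed (edgeR quasi-likelihood test of the interaction contrast over 17412 tested genes, of which 0% passed; DESeq2 called 0 members and 145 genes in all), and 1 had an unadjusted p under 0.05, against 11.7% of all tested genes. That member was Rpl38, whose log2 fold change was larger in captured neurons by 0.42 (SE 0.14, 95% interval 0.12 to 0.71, adjusted p = 0.279). For Rps27 the difference was −0.39 (SE 0.19, 95% interval −0.79 to 0.01). Rpl36, Rpl41 and Rpl28 followed with 0.36 (SE 0.18), 0.30 (SE 0.17) and 0.21 (SE 0.13). The median over the members was 0.061 and 66 of 85 were above 0, where 48.5% of all tested genes were. The members' median in captured neurons was −0.036 without EE1 and −0.081 in lane 3, which leaves out both EE1 and SH2. In whole ganglia it was 0.017, and ran from −0.073 without EE2 to 0.10 without EE1 of that preparation. The median of the difference itself is not given here without captured EE1, so the part of that library was not tested. Of the 85 intervals of this difference, 75 lay within a 1.5-fold change.

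Of the 13 genes outside the canonical set, 6 were tested in whole ganglia and 7 in captured neurons, and 0 passed in either. Rpl10l and Rpl39l, copies known for expression in testis, Rpl3l, known from striated muscle, and Rps12l1, Rps12l2 and Rps3a3 were not tested in either preparation, with at most 21 reads in any library. Rpl22l1, the paralog of Rpl22, had 86.6, 65.1 and 73.3 CPM in SH and 62.1, 85.4 and 79.0 in EE of whole ganglia. In captured neurons it had 12.1, 9.31 and 11.3 CPM in SH and 13.4, 10.0 and 8.76 in EE, and a log2 fold change of −0.31 (SE 0.14) in lane 3. Its groups overlapped in both preparations. Rps27l, the paralog of Rps27, had 27.5, 26.4 and 28.2 CPM in SH and 24.0, 31.6 and 32.4 in EE of whole ganglia (log2 fold change 0.11, SE 0.099), and 8.76, 6.79 and 8.08 in SH and 10.2, 8.55 and 8.72 in EE of captured neurons (0.21, SE 0.14).

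Rpl36al, the paralog of Rpl36a, had 45.8 to 61.7 CPM in whole and 28.9 to 39.5 in captured libraries. The locus of Rpl36al overlaps the same-strand gene Gm49383 by 1250 bases, so its reads can be split or lost by the counting. Rpl7l1, a paralog of Rpl7, had 52.5 to 57.2 CPM in whole libraries, and in captured neurons 37.2 ± 4.48 in SH and 39.3 ± 2.45 in EE (SD, n = 3 each). The log2 fold changes of Rpl36al and Rpl7l1 were −0.0081 (SE 0.091) and −0.0048 (SE 0.068) in whole ganglia and 0.078 (SE 0.11) and 0.075 (SE 0.093) in captured neurons. Rps19bp1 had 9.13 to 12.1 CPM in whole and 3.11 to 5.20 in captured libraries. Rps4y2, an older name of Rps4l, a transcribed pseudogene in the RefSeq gene table, had 17.6 to 26.3 and 8.22 to 10.3 CPM. Reads of near-identical copies can be split or lost by counting, so the levels of Rps4y2, Rps3a2, Rps3a3, Rps12l1 and Rps12l2 are uncertain.

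The pathway around the ribosome was read from lists of translation and ribosome assembly genes. Of 16 elongation and release factors, 39 initiation factors, 40 ribosome biogenesis genes and 18 genes of mTOR signalling and TOP control, 0 passed in either direction in whole ganglia and 0 in captured neurons over all lanes. Their median log2 fold changes were 0.037, 0.014, 0.0066 and 0.0045 in whole ganglia, where all tested genes had 0.0028. In captured neurons they were 0.044, 0.027, 0.074 and −0.053. The smallest p in the whole-ganglion lists belonged to the elongation factors Eef2 (0.15, SE 0.12) and Eef1b2 (0.090, SE 0.077), the initiation factors Eif4a2 (0.10, SE 0.063) and Eif1a (0.11, SE 0.068), the assembly factors Gnl3 (0.12, SE 0.076) and Sbds (0.10, SE 0.066), the mTOR complex component Akt1s1 (−0.14, SE 0.070) and Myc (0.19, SE 0.11).

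In captured neurons the smallest p in each list belonged to Deptor, an inhibitory partner of mTOR, with 261 ± 30.3 CPM in SH and 183 ± 6.60 in EE (SD, n = 3 each; log2 fold change −0.52, SE 0.093, adjusted p = 0.0898 by edgeR's quasi-likelihood test), to Eif1b (0.30, SE 0.080), Eef2k, the kinase of elongation factor Eef2 (−0.27, SE 0.075), and Wdr12, a biogenesis factor (0.21, SE 0.075). Next in each list stood Tsc1, an upstream brake on mTOR (−0.22, SE 0.072), Pabpc1, a poly(A)-binding protein whose own messenger RNA is of the TOP class (−0.42, SE 0.13), Eif5a2 (0.11, SE 0.061) and Nmd3 (0.19, SE 0.073). In lane 3, 1 of 18 mTOR and TOP control genes fell, Deptor (−0.41, SE 0.066, adjusted p = 0.00394, edgeR quasi-likelihood test), and 1 of 16 elongation and release factors fell, Eef1a1 (−0.22, SE 0.056, adjusted p = 0.0451), where 2.18% of all tested genes were called lower. Eef1a1, itself a TOP gene, had 1178 ± 80.6 CPM in SH1 and SH3 and 1001 ± 8.07 in EE2 and EE3 (SD, n = 2 each). None of the 39 initiation factors and none of the 40 biogenesis genes passed in lane 3. There Eif1b was at 0.30 (SE 0.087), Pabpc1 at −0.19 (SE 0.080), Eef2k at −0.23 (SE 0.093), Tsc1 at −0.20 (SE 0.077), Nob1, an assembly factor, at −0.36 (SE 0.16) and Wdr12 at 0.18 (SE 0.080).

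Gnb2l1 and Fau encode ribosomal proteins outside the symbol rule, and neither passed the test in any of these comparisons. Gnb2l1, the older symbol of the small-subunit scaffold Rack1, had a log2 fold change of −0.0040 (SE 0.088) in whole ganglia, 0.046 (SE 0.11) in captured neurons and −0.15 (SE 0.073) in lane 3. Fau, a small-subunit protein made as a ubiquitin-like fusion, had −0.043 (SE 0.13), 0.23 (SE 0.10) and 0.11 (SE 0.080).

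Levels per length spread widely among members although the ribosome holds its proteins in nearly equal numbers. In the authors' FPKM values of whole ganglia (fragment counts scaled by gene length and library size), the median of the 77 canonical genes over 6 libraries was 114, with a range of 20.7 to 651. The highest were the stalk gene Rplp1 (651 ± 66.0 FPKM; SD, n = 6), Rps15 (321 ± 37.6), Rpl4 (318 ± 22.7), Rpl32 (314 ± 26.2) and Rps12 (301 ± 34.8). Rps15, Rpl4, Rpl32 and Rps12 lay within each other's spread and Rplp1 lay above them in every library. The lowest were Rps19 (20.7 ± 3.04), Rpl18 (23.1 ± 2.93) and Rps15a (24.7 ± 1.76). With the same gene lengths, captured CPM per kilobase had a median of 55.1 and a range of 7.20 to 242. Rpl3, which lines the peptidyl transferase centre, was highest (242 ± 26.6), followed by Rplp1 (239 ± 33.7), Rpl4 (233 ± 15.0), Rpl17 (204 ± 20.9) and Rps23 (189 ± 20.8), whose ranges overlapped from each neighbour to the next. Rps19, Rpl18 and Rps15a were again lowest, at 7.20 ± 0.864, 7.56 ± 1.06 and 8.03 ± 0.977.

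This order depends on the gene length used. The authors' values imply lengths of 4711 bases for Rps19, 4064 for Rpl18 and 6297 for Rps15a, against GENCODE transcripts of 774, 2989 and 5179 bases. With GENCODE lengths Rps19 moved from rank 77 to rank 62 of 77 in whole ganglia, and Rpl32 from rank 4 to rank 41. The rank correlation of both orders over the 77 genes was 0.49 (Spearman), a description across genes that share libraries. Between whole ganglia and captured neurons, with the same implied lengths on both sides, it was 0.83.

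Finally, members were set beside each other in both preparations within SH. The summed CPM was 1.90-fold lower in captured neurons. Of the 77 canonical genes 65 were lower in all 6 captured libraries than in all 6 whole-ganglion libraries, 1 was higher and 11 overlapped. Of the 14800 genes tested in both preparations, 39.8% were lower and 25.7% higher without overlap. The median canonical gene was 2.00-fold lower, small-subunit genes 2.83-fold and large-subunit genes 1.78-fold, beside a median log2 difference of −0.22 over all genes. Kit, read length and RNA integrity differed between the preparations along with the cells, so these cannot be told apart, and the comparison is given without a test. Sham stands in the column names of whole ganglia alone, and whether a procedure differed as well is not labelled.

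The small-subunit genes Rps14, Rps16 and Rps18 differed most (named after their values were seen). Rps14 had 171 ± 12.2 CPM in whole and 20.6 ± 3.91 in captured SH libraries (SD, n = 3 each), 8.31-fold lower. Rps16 had 87.8 ± 12.5 and 17.1 ± 1.69 CPM (5.12-fold lower), and Rps18 had 145 ± 14.2 and 31.0 ± 1.73 (4.67-fold lower). Among the paralogs Rpl22l1 was 6.88-fold lower. At the other end Rpl5, which with Rpl11 forms a particle that binds Mdm2, was the single higher canonical gene, with 270 ± 11.95 CPM in whole and 349 ± 33.6 in captured SH libraries (1.29-fold higher). Its locus overlaps Fam69a on the opposite strand by 953 bases, that of Rps18 overlaps Vps52 by 190, and that of Rps14 overlaps Ndst1 by 1553, also on the opposite strand. In all, 30 of the 88 members with a GENCODE locus overlap another annotated gene when small RNA genes, such as snoRNAs and miRNAs, are left out. Overlaps with small RNA genes were not counted. Across the 77 canonical genes the log2 difference between preparations had a rank correlation of 0.31 with GENCODE transcript length, 0.15 with the length implied by the authors' FPKM and −0.41 with GC content (Spearman, across genes of the same libraries). Across all genes with a GENCODE length the values were 0.50 for length and −0.52 for GC content.

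**Figure D5:**
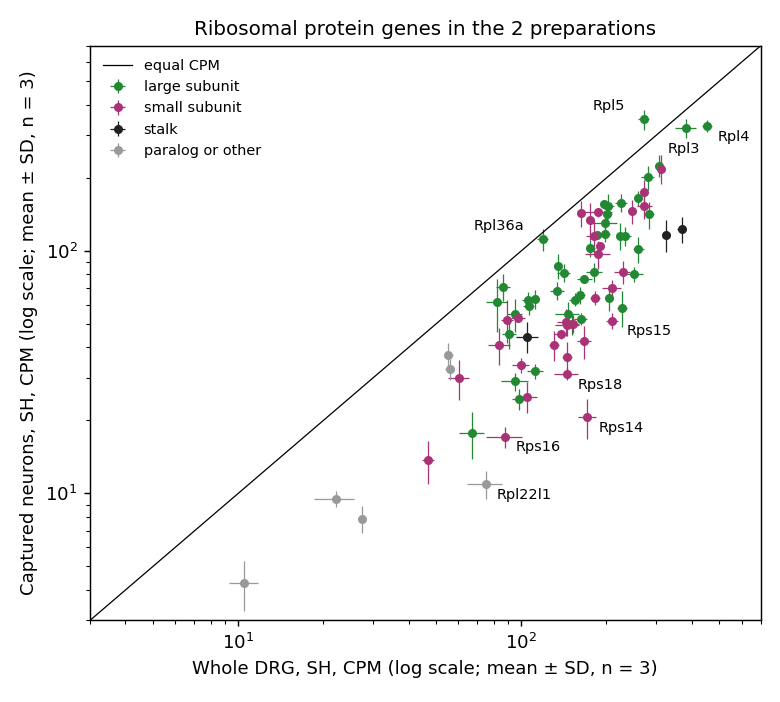
Mean CPM of each of the 83 ribosomal protein genes tested in both preparations, in SH libraries of whole DRG (x axis, log scale) and of captured neurons (y axis, log scale), with SD (n = 3) and colours by subunit. Nearly all points lie below the line of equal CPM; Rpl5 lies above it, and Rps14 is farthest below it among canonical genes.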

How the data were processed

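The deposited tables hold whole-number read counts per gene name, and the authors' FPKM values for whole DRG. The build mm10 and the tools HTSeq 0.6.0 and TopHat2 2.0.12 stand, without roles, in the submitters' processing notes. Whether the counting used strand is not given in the sources used here. Reads not aligned uniquely were 8.49 to 8.99% (whole DRG) and 11.0 to 15.2% (captured); the 5 rows that name no gene were left out. The second captured table, a scaled form of the counts, was not used. No column belonged to another series (0). Whole-DRG columns have Sham in their names, a word absent from the labels.

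CPM use library size alone. Counts were analysed per preparation with edgeR 4.0.16 in R 4.3.3 (filterByExpr, TMM, quasi-likelihood test, Benjamini-Hochberg adjustment over all tested genes at 0.05). The difference of housing effects was a contrast over 12 libraries. Intervals are 95% from the fit. Deviations by library use TMM-scaled log2 CPM with a prior count of 2. Levels per length of captured neurons use the length implied by the authors' FPKM. Loci and lengths are from GENCODE vM21 (GRCm38), promoters from RefSeq. Alternatives were DESeq2 1.42.0, limma-voom (limma 3.58.1), other scalings and filters, length and GC offsets (splines with 4 degrees of freedom; 95.8 and 95.5% of tested genes had values), leaving out each library, lane 3 by itself and a block for the replicate number. The scripts were tested on simulated data. No 2 libraries of a group were duplicates (chi-square per degree of freedom 3.76 to 19.1).

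Members and lists were chosen with earlier results of these data known. Named members were the 5 with the smallest p and the 3 highest and 3 lowest per comparison, the extremes per length, all 13 other genes, the 2 pathway genes with the smallest p per list and the 5 genes most like the members' profile. Whole-DRG replicate numbers share a lane per the labels (4, 5 and 6). Deviations of same-number libraries had correlations of 0.33, 0.15 and 0.10, but those of SH3 had 0.19 with EE2. The correlations therefore do not settle whether the numbers pair the libraries. The main fit left the numbers out, and the replicate block took them in. Reads in genes ranged from 11343579 to 17036481 (whole DRG) and from 19296230 to 29434351 (captured).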

Additional observations from a re-analysis of the deposited data

How the results depend on the processing

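The count of members past the threshold was 0 in whole ganglia, in captured neurons and for their difference under every alternative run, leave-one-out included (0 to 0), except that without a filter on low counts 2 passed in captured neurons. The replicate block gave 0 members in each of the 3 results and changed no call of a member. With the block 32 genes in all passed in whole ganglia against 1 without it, and 20 with the block and the length and GC correction. The median log2 fold change of members in captured neurons was −0.081 in lane 3 alone against 0.075, and the difference of summed CPM (EE minus SH) was −454 against 468. Leaving out 1 library gave medians of −0.073 (without EE2) to 0.10 (without EE1) in whole ganglia and −0.036 (without EE1) to 0.15 (without SH1) in captured neurons. The differences of summed CPM ran from −831 to 957 and from −118 to 841. The counts over all genes, added after seeing the data, ran from 0 to 48 (without a filter) in whole ganglia, from 0 to 902 in captured neurons and from 0 to 233 for the difference. They were 522 with DESeq2, 902 without a filter, 602 without EE1 and 658 in lane 3 in captured neurons, and 145, 233 and 171 for the difference with DESeq2, without captured EE1 and in lane 3. Of 491 and 448 refitted log2 fold changes of named members in captured neurons and whole ganglia, none passing the threshold changed sign, 2 passed only without the filter (Rpl38 and Rps21), and 60 and 57 that did not pass changed sign, 14 of 29 in lane 3. The causes were not tested. In captured neurons the correlations of same-number libraries were 0.090, −0.0079 and 0.12, and such libraries did not all share a lane. Untested for low counts were 7 members in whole ganglia (at most 19 reads in a library) and 6 in captured neurons (at most 21).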

Other observations

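Names containing "-ps", which the rule left out, are copies of ribosomal protein genes. Their 222 rows summed to 16.5 to 20.1 CPM per whole-ganglion library and 32.9 to 44.7 CPM per captured library, the opposite order to the members themselves. At a mean of at least 1 CPM stood 6 of them in whole ganglia and 10 in captured neurons, and 44 were at 0 in all 12 libraries. Rpl3-ps1 had a mean of 0.943 CPM in whole ganglia and 10.9 in captured neurons, and Rps6-ps4 had 0.879 and 3.12. Rps3a2, a member that GENCODE lists as a processed pseudogene, behaved likewise, with 0.117, 0.145 and 0.202 CPM (2, 2 and 3 reads) in SH of whole ganglia and 6.88, 4.68 and 4.35 CPM in SH of captured neurons. Which copy these reads came from was not tested.

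The nonmember whose log2 CPM over the 6 captured libraries was most like the members' mean profile was Pja1 (r = 0.993, of 16102 tested nonmembers), followed by Pef1 (0.990), Stk25 (0.988), H1f0 (0.986) and Flywch2 (0.984). With 6 libraries and this many genes, such values are a description of these libraries.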
